A study of Rattus norvegicus with 2 samples.

Results

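The regions described here are the HMGB2 peaks that lie near the ends of the rat autosomes. They come from a pair of ChIP-seq libraries made from neonatal rat ventricular myocytes, which are heart muscle cells in primary culture from Sprague Dawley pups 1 day of age. One library came from basal cells with no treatment. The other came from cells given 10 µM phenylephrine, an alpha-adrenergic agonist that drives hypertrophic growth of such cultures, for 48 h. The same HMGB2 antibody was used in both, and each condition had 1 library, so no replicate measures the spread between cultures. Peak positions, widths and scores alone were analysed, and they offer no marker by which the labelled cell type could be checked. A peak was a member when its midpoint lay in the first 10 Mb or the last 10 Mb of chromosomes 1 to 20 of the rn4 genome build. The end of a chromosome was taken as the highest peak end in either list. By this rule 7478 of the 42482 autosomal basal peaks and 6740 of the 41551 autosomal phenylephrine peaks were members, out of 43721 and 42691 peaks in the whole lists. The first ends held 3134 basal and 2938 phenylephrine members, and the last ends 4344 and 3802. The remaining 35004 basal and 34811 phenylephrine peaks on these chromosomes are called the interior.

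HMGB2 is a member of the high mobility group B family, abundant nuclear proteins with paired HMG boxes that enter the minor groove and bend DNA with little preference for sequence. It can loosen the wrapping of DNA around nucleosomes and takes part in the folding of chromatin. The ends of a chromosome carry telomeric repeats bordered by subtelomeric sequence that is often repetitive. In the rat the position of the centromere differs between chromosomes. Chromosomes 2 and 4 to 10 are telocentric or nearly so, which places the first bases of the assembly next to the centromere. Chromosomes 14 to 20 are metacentric, so that both of their ends are telomeric. The genes and the sequence beneath the peaks were not used here, since the gene and promoter tables at hand belong to another build.

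The 2 ends of the chromosomes differed in how many HMGB2 peaks they held, and in the same direction in both libraries. The last ends were peak-rich, with 21.7 basal peaks per Mb (95% interval 21.1 to 22.4) and 19.0 phenylephrine peaks per Mb (18.4 to 19.6). The interior held 16.2 basal peaks per Mb (16.1 to 16.4) and 16.1 phenylephrine peaks per Mb (16.0 to 16.3). The first ends held fewer than the last, with 15.7 basal peaks per Mb (15.1 to 16.2) and 14.7 phenylephrine peaks per Mb (14.2 to 15.2). The density of the last ends was thus 1.34 times that of the interior in the basal list (1.30 to 1.38) and 1.18 times in the phenylephrine list (1.14 to 1.22). For the first ends the same ratio was 0.965 (0.930 to 1.00) and 0.910 (0.876 to 0.945). In the basal list the interval of the first ends reaches no difference, and leaving out chromosome 8 or chromosome 20 alone moved the basal ratio to 1.01 or 0.897. Peaks covered 2.91% of the last ends, 2.03% of the first ends and 2.11% of the interior in the basal list. Phenylephrine peaks covered 1.21%, 0.926% and 1.03%. All such intervals cover counting error over peaks only, neighbouring peaks are not independent, and with 1 library per condition no test was made.

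The pattern was not shared by every chromosome. The last end was denser than the interior of its own chromosome in 14 of 20 autosomes in each list, and denser than the first end in 13 for the basal and 14 for the phenylephrine list. Over the chromosomes the ratio of last end to interior had a median of 1.28 in the basal list, from 0.636 on chromosome 2 to 2.25 on chromosome 5. For phenylephrine peaks the median was 1.15, from 0.625 on chromosome 18 to 1.53 on chromosome 5. The first end was denser than the interior in 8 autosomes for the basal list and 10 for the phenylephrine list. Its ratio to the interior ran from 0.0278 on chromosome 13 to 1.94 on chromosome 20 in the basal list. For phenylephrine peaks it ran from 0.111 on chromosome 13 to 1.71 on chromosome 16. The first ends therefore varied more from chromosome to chromosome than the last ends did in both lists.

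**Figure D1:**
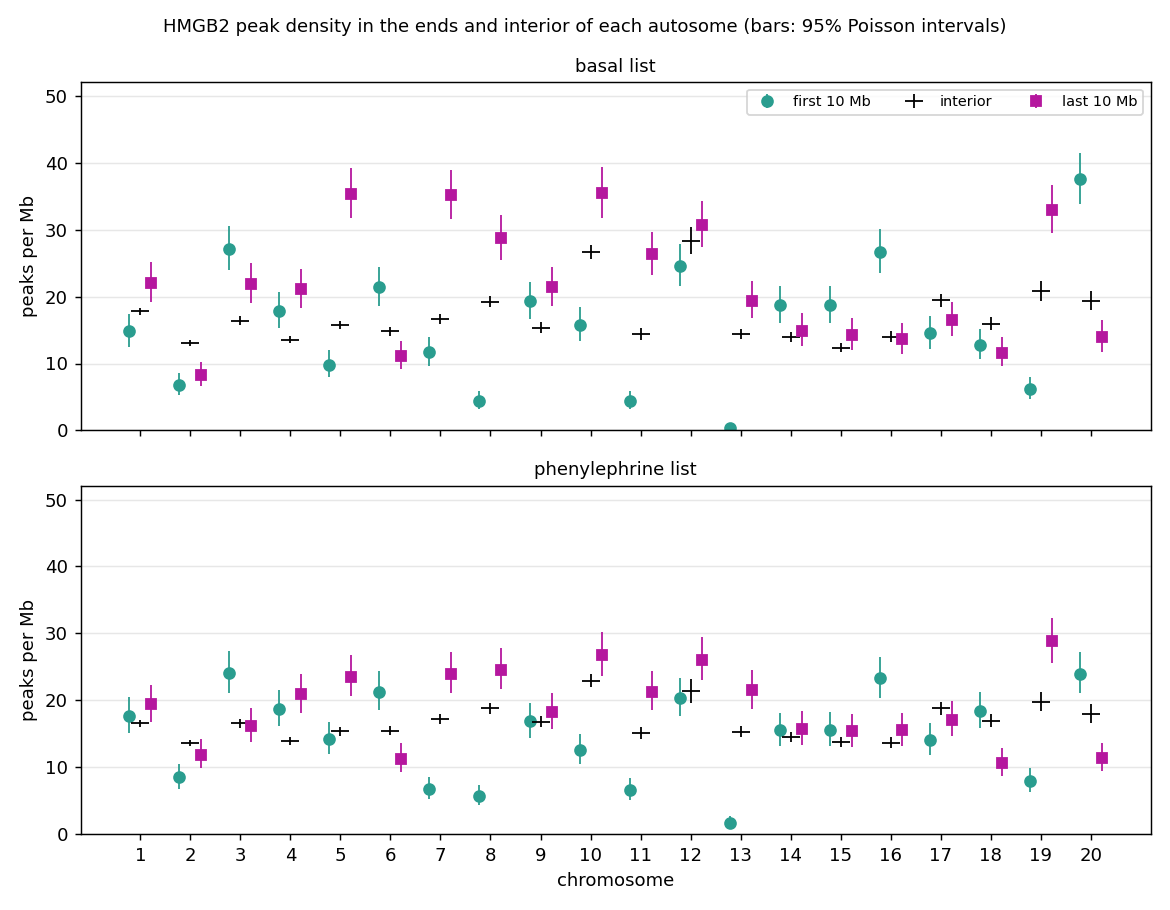
HMGB2 peaks per Mb (vertical axis) in the first 10 Mb, the last 10 Mb and the interior of each autosome (horizontal axis), basal list above and phenylephrine list below, with exact Poisson 95% intervals. The last ends of chromosomes 5, 7, 8, 10, 11 and 19 stand above their interiors in both lists, and the first end of chromosome 13 lies near 0.

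The densest and the sparsest ends lay far from the mean density of the interior. The start of chromosome 20, a region that in the rat carries the RT1 major histocompatibility complex, had the most basal peaks, 37.5 per Mb (33.8 to 41.5), which is 2.31 times the mean of the interior. Next came the last ends of chromosome 10 at 35.4 per Mb (31.8 to 39.3) and chromosome 5 at 35.3 (31.7 to 39.2), which cannot be ordered within their intervals. By phenylephrine peaks the last ends of chromosome 19 (28.8 per Mb, 25.6 to 32.3), chromosome 10 (26.8, 23.7 to 30.2) and chromosome 12 (26.1, 23.0 to 29.5) were the densest. These intervals overlap as well. The start of chromosome 13 was the sparsest end in both lists, with 4 basal peaks in 10 Mb (0.109 to 1.02 per Mb) and 17 phenylephrine peaks (0.990 to 2.72 per Mb). The starts of chromosomes 8 and 11 followed, each with 4.40 basal peaks per Mb (3.20 to 5.91). Their phenylephrine densities were 5.70 per Mb (4.32 to 7.39) and 6.60 per Mb (5.10 to 8.40).

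Set beside interior stretches of the same length, the ends covered nearly the same range. The interior was cut into 205 windows of 10 Mb, which held a median of 153 basal peaks and 162 phenylephrine peaks. Their 5th and 95th percentiles were 44.8 and 310.4 basal peaks, and 65 and 251.6 phenylephrine peaks. Last ends held a median of 212.5 basal peaks (from 83 to 354) and 188.5 phenylephrine peaks (from 106 to 288). Of these 20 ends, 13 in the basal and 12 in the phenylephrine list were above the interior median. Above the interior's 95th percentile were 4 basal and 3 phenylephrine ends, and 0 were under its 5th percentile in either list. First ends held a median of 153 basal peaks (from 4 to 375) and 155.5 phenylephrine peaks (from 17 to 241). Among the 20 first ends, 3 by basal and 2 by phenylephrine counts were under the 5th percentile of the interior windows, and 1 and 0 were above the 95th.

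Summed over the autosomes, the outermost Mb was sparser than the end as a whole on both sides. At the first ends it held 9.50 basal peaks per Mb (8.20 to 10.95) and 9.05 phenylephrine peaks per Mb (7.78 to 10.5). At the last ends it held 18.5 (16.7 to 20.5) and 16.2 (14.5 to 18.1). Single chromosomes varied, with 1 to 30 basal peaks in the outermost Mb of the first ends and 1 to 51 in that of the last ends. From 5 to 10 Mb inward the first ends had 16.9 basal (16.1 to 17.7) and 15.6 phenylephrine peaks per Mb (14.9 to 16.4). The last ends had 21.5 (20.6 to 22.5) and 19.1 (18.3 to 20.0) there. Assembly gaps were not masked, and their part in the low outermost density was not tested. The first peak from base 1 of the assembly lay at a median of 151 kb in the basal list and 124 kb in the phenylephrine list, and at 332 and 1797 kb on chromosome 13. The last ends cannot be described this way, because a peak sets where each of them stops.

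The high density of the last ends did not stop 10 Mb inward. Between 10 and 20 Mb from the last end the density was 20.2 basal peaks per Mb (19.6 to 20.8) and 19.0 phenylephrine peaks per Mb (18.4 to 19.6). From 20 to 30 Mb it was 21.9 (21.2 to 22.5) and 20.4 (19.7 to 21.0), over the chromosomes long enough to reach that far. From the first end the same stretches held 16.6 basal (16.0 to 17.2) and 15.4 phenylephrine peaks per Mb (14.8 to 15.9), then 14.8 (14.3 to 15.4) and 15.2 (14.7 to 15.8). When every chromosome was cut into 10 equal parts, the part at the far end held 21.3 basal peaks per Mb (20.8 to 21.9). The 2 parts before it held 20.1 (19.6 to 20.7) and 19.6 (19.1 to 20.2). The third part from the start was the sparsest, with 12.3 (11.9 to 12.7). The last 3 parts held 18.6, 18.8 and 19.1 phenylephrine peaks per Mb, in order toward the end, and the third part 12.5. In these sums over chromosomes the last 10 Mb were therefore the outer portion of a longer peak-rich stretch. Its length was not examined chromosome by chromosome, and in 6 of 20 autosomes in each list the last end was sparser than the interior.

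**Figure D2:**
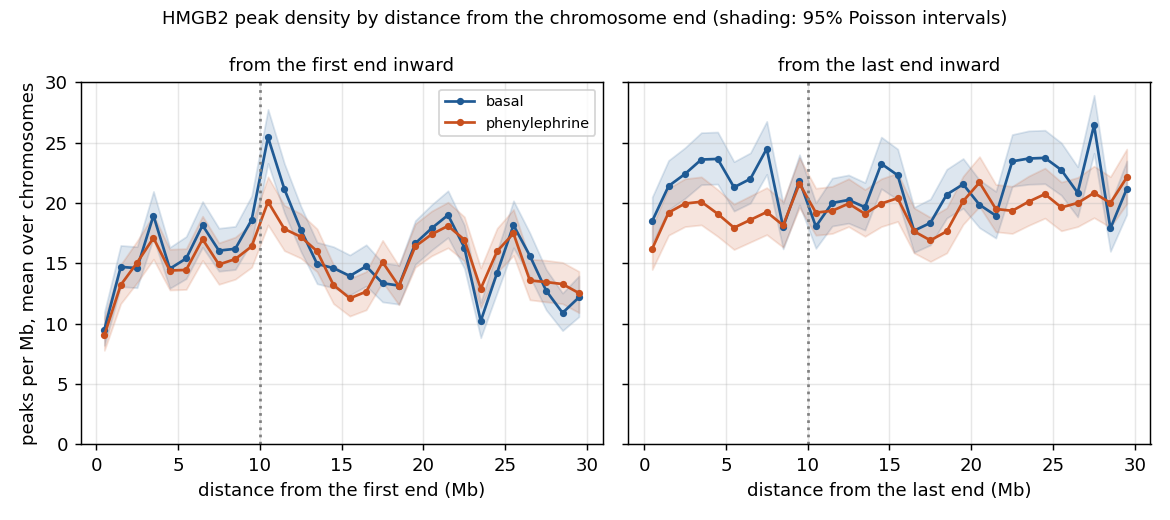
HMGB2 peaks per Mb (vertical axis, mean over the chromosomes long enough) at each Mb of distance from the first end (left) and the last end (right) of the autosomes, with exact Poisson 95% intervals as shading and a dotted line at 10 Mb. Density is lowest in the outermost Mb of the first ends, at 9.50 basal and 9.05 phenylephrine peaks per Mb, and remains high up to 30 Mb from the last ends.

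In the chromosomes whose assembly starts beside the centromere, and in those with a short arm, the last ends were the denser, while the metacentric ones had no such excess. In chromosomes 2 and 4 to 10 the basal density was 13.4 per Mb in the first ends (12.6 to 14.2) and 24.6 in the last ends (23.5 to 25.7). The phenylephrine density there was 13.1 (12.3 to 13.9) and 20.2 (19.2 to 21.2). The last end exceeded the first in 7 of these 8 chromosomes in both lists. Metacentric chromosomes 14 to 20 had 19.3 basal peaks per Mb in their first ends (18.3 to 20.4) and 16.8 in their last ends (15.9 to 17.8). Their phenylephrine densities were 17.0 (16.0 to 18.0) and 16.4 (15.4 to 17.3), with overlapping intervals. The last end exceeded the first in 2 of these 7 chromosomes in the basal list and in 3 in the phenylephrine list. Which end was denser rested on single chromosomes. Without chromosome 20 the first and last ends of the other 6 held 16.3 (15.3 to 17.3) and 17.3 (16.2 to 18.4) basal peaks per Mb, and 15.8 (14.8 to 16.8) and 17.2 (16.2 to 18.3) phenylephrine peaks per Mb. Without chromosome 19 they held 21.5 (20.3 to 22.7) and 14.1 (13.2 to 15.1) basal, and 18.5 (17.4 to 19.6) and 14.3 (13.3 to 15.3) phenylephrine peaks per Mb. The phenylephrine order also turned without chromosome 16 (15.9 and 16.5) or chromosome 18 (16.7 and 17.3). The remaining chromosomes, 1, 3 and 11 to 13, have a short arm, and their intervals overlapped those of the first group in both ends and both lists. They held 14.3 basal peaks per Mb in the first (13.2 to 15.3) and 24.1 in the last ends (22.7 to 25.5), and 14.1 (13.1 to 15.2) and 20.9 (19.6 to 22.2) phenylephrine peaks per Mb. The last end exceeded the first in 4 of these 5 chromosomes in both lists, and chromosome 3 went the other way. Without chromosome 13 the first and last ends of the others held 17.7 (16.4 to 19.1) and 25.2 (23.7 to 26.8) basal peaks per Mb. Interiors differed less between the 3 forms than the ends did, from 15.8 to 17.0 basal and from 16.0 to 16.4 phenylephrine peaks per Mb. The basal interval of the short-arm interiors (16.7 to 17.3) still lay above those of the other forms. Single interiors ran from 12.4 to 28.3 basal peaks per Mb. Within each form single chromosomes spread widely: the first ends ran from 4.40 to 21.4 basal peaks per Mb in chromosomes 2 and 4 to 10. They ran from 6.20 to 37.5 in the metacentric ones and from 0.4 to 27.1 in those with a short arm. The form was taken from the known rat karyotype, and the files hold no centromere position.

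Both libraries contributed nearly equal numbers of peaks to the ends, with a small surplus of basal peaks at the last ends. Phenylephrine peaks made up 46.7% of all calls in the last ends (45.6 to 47.8%), 48.4% in the first ends (47.1 to 49.6%) and 49.9% in the interior (49.5 to 50.2%). The share in the last end was under that of the interior on 14 of 20 chromosomes, and in the first end on 9. Across the 40 ends the numbers of peaks in the 2 lists moved together, with a Spearman's rho of 0.93 and a Pearson's r of 0.92. Each of these points is 1 stretch of the same pair of libraries.

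Basal and phenylephrine counts lay apart, by their 95% Poisson intervals, in 8 of the 40 ends. More basal peaks were found in 6 of them, 4 last and 2 first ends. More phenylephrine peaks were found in 2, of which 0 were last ends. By the same measure 10 of the 205 interior windows of 10 Mb held more basal peaks, and 16 held more phenylephrine peaks. Over all 245 windows of the autosomes, the ends included, the shares were 6.53% and 7.35%. The start of chromosome 20 had 375 basal and 240 phenylephrine peaks. The last end of chromosome 5 had 353 and 235, that of chromosome 7 had 351 and 240, and that of chromosome 10 had 354 and 268. In the last end of chromosome 3 the counts were 219 and 161. The start of chromosome 7, where phenylephrine calls made up the smallest share of all ends (36.4%, 29.8 to 43.6%), had 117 and 67. The 2 ends with more phenylephrine peaks were the starts of chromosome 18, with 128 basal and 184 phenylephrine peaks, and of chromosome 5, with 98 and 142. At the start of chromosome 13 phenylephrine calls made up 81.0% of 21 calls, and the intervals of 4 and 17 peaks overlap.

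**Figure D3:**
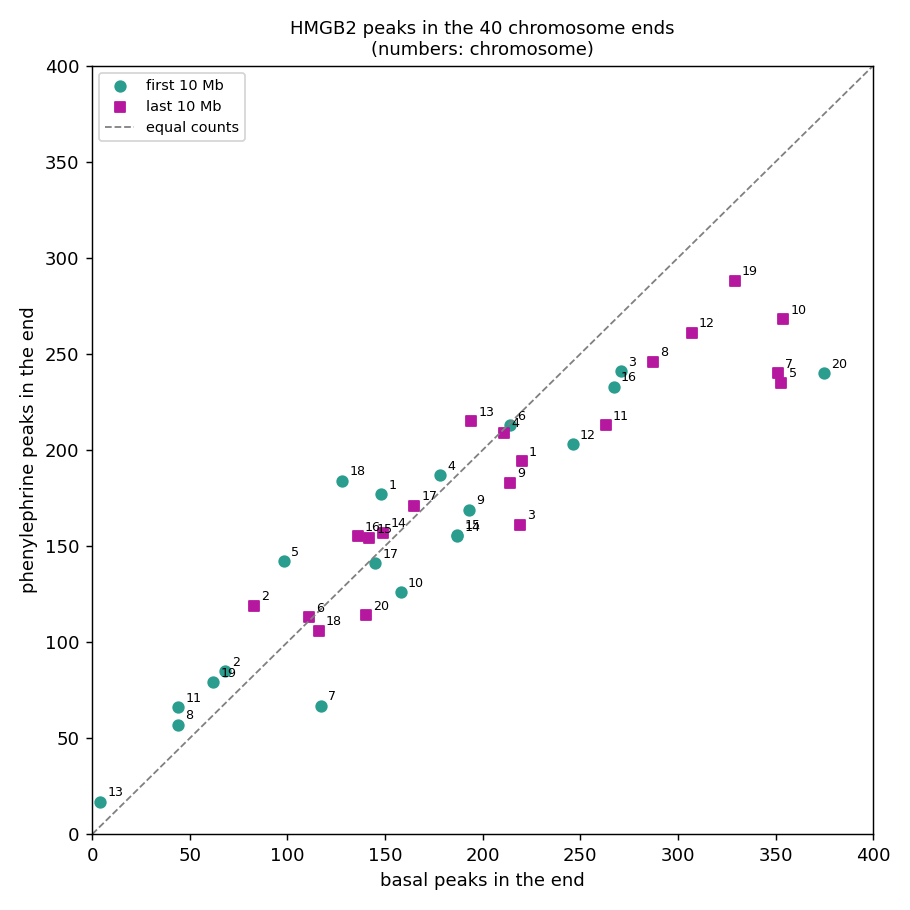
Number of basal peaks (horizontal axis) and phenylephrine peaks (vertical axis) in each of the 40 chromosome ends, labelled by chromosome; circles are first ends, squares are last ends, and the dashed line marks equal numbers. The ends with the most basal peaks lie under the line, such as the start of chromosome 20 with 375 and 240, and the sparse starts of chromosomes 2, 8, 11, 13 and 19 lie above it.

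Over the autosomes phenylephrine calls took a smaller share where calls of both lists were dense, so the zones were compared at like density. All 1 Mb bins with a peak were put into 4 classes of about equal size by their total calls. The classes thus rest on the same counts whose share was read. Basal counts also spread more widely, up to 67 per interior bin against 49 for phenylephrine. How far the trend over the classes comes from this was not tested. In the densest class, with 50 to 111 calls per bin, phenylephrine peaks were 43.4% of calls in the last ends (41.9 to 44.9%), 43.6% in the first ends (41.8 to 45.5%) and 45.4% in the interior (44.9 to 45.9%). In the next class, with 32 to 49 calls, they were 48.0% (46.1 to 49.9%), 46.8% (44.4 to 49.1%) and 50.5% (49.8 to 51.2%). From 13 to 31 calls they were 54.4%, 56.0% and 56.6%, with overlapping intervals. In the sparsest class, with up to 12 calls, they were 60.9% (54.3 to 67.1%) in the last ends and 69.3% (64.3 to 73.9%) in the first ends, around 65.3% (63.7 to 66.8%) in the interior. Last ends thus stood 1.97 to 2.51 points under the interior in the classes from 13 calls upward. In the sparsest class they stood 4.35 points under it. In each class the intervals of the 2 shares overlapped, in the 2 denser ones only at their margins. Bins were counted from base 1, so the last bin of a chromosome is shorter than 1 Mb. Several such short bins fell in the sparsest class, where last ends were therefore not compared at like density. First ends had intervals apart from the interior only in the class from 32 to 49 calls. Bins of the 2 denser classes made up 62.2% of last-end bins, 44.4% of first-end bins and 48.0% of interior bins.

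**Figure D4:**
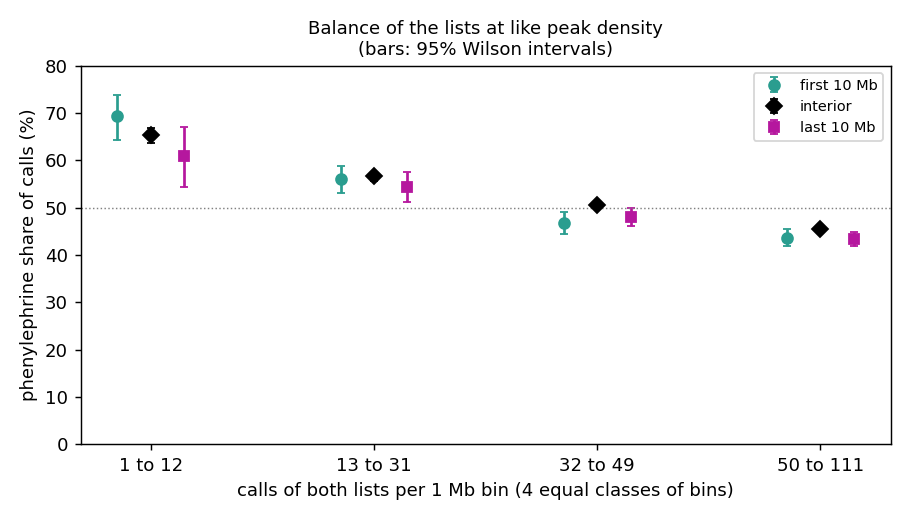
Phenylephrine share of the calls of both lists (vertical axis, percent) in 1 Mb bins grouped into 4 classes by their total calls (horizontal axis), for the first 10 Mb, the interior and the last 10 Mb, with Wilson 95% intervals. The share is lower in denser bins in all 3 zones, from 65.3% to 45.4% in the interior. The classes were made from the same calls whose share is shown.

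In single Mb the balance of the lists rests on fewer calls, so counting error weighs more there than in whole ends. The spread expected from counting was not computed. Bins in which phenylephrine calls were at least 2 times the basal calls made up 21.2% of all 2545 autosomal bins with a peak, and 11.96% of bins in the last ends (8.23 to 17.1%). In the first ends they were 21.9% (16.7 to 28.2%) and in the interior 22.1% (20.4 to 23.9%). These shares were not compared at like density. Last ends held more bins of the denser classes, in which the phenylephrine share of calls was lower. Bins in which basal calls were at least 2 times the phenylephrine calls were rarer, 4.28% of all bins, 6.22% in the last ends (3.67 to 10.3%), 5.61% in the first ends (3.16 to 9.77%) and 3.97% in the interior (3.22 to 4.89%). The largest surplus of phenylephrine calls in an end, 15 calls, was found in 2 bins. On chromosome 1 at 9000001 to 10000000, 8 basal calls (3.45 to 15.8) stood against 23 phenylephrine calls (14.6 to 34.5), with overlapping intervals. A bin near the end of chromosome 10, at 101000001 to 102000000, contained 3 basal (0.619 to 8.77) and 18 phenylephrine peaks (10.7 to 28.4), with intervals apart. The one at 2000001 to 3000000 on chromosome 18 contained 18 and 32, with overlapping intervals. The largest surplus of basal calls was on chromosome 5 at 167000001 to 168000000, with 53 (39.7 to 69.3) and 24 (15.4 to 35.7). The bin at 6000001 to 7000000 on chromosome 20 contained 58 basal (44.0 to 74.98) and 30 phenylephrine calls (20.2 to 42.8). Near the start of chromosome 7, the bin at 1000001 to 2000000 contained 52 (38.8 to 68.2) and 26 (16.98 to 38.1). These bins are the extremes of the 411 bins of the ends, chosen by their difference.

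The start of chromosome 7 illustrates how unevenly peaks were laid out within an end. Of its 117 basal peaks, 52 lay in the bin just named and 36 in the bin at 9000001 to 10000000. Between 3273491 and 7234582 there was no basal peak over 3.96 Mb, and between 3768988 and 8493405 no phenylephrine peak over 4.72 Mb. On chromosome 13 the basal list had no peak from 2405240 to 10675368, a stretch of 8.27 Mb that was the longest of all autosomal ends. The phenylephrine list had 18 peaks within this stretch, 16 of them in the first 10 Mb. None of the peaks at the start of chromosome 13 was shared: 0 of 4 in the basal and 0 of 17 in the phenylephrine list. Over all autosomes 19.7% and 20.8% were shared. The 16 phenylephrine peaks in the stretch without basal peaks could not be shared, and the peaks left are too few to compare. Over all autosomes, peak-free stretches of at least 1 Mb took up 16.8% of the first ends, 7.17% of the last ends and 14.3% of the interior in the basal list. In the phenylephrine list they took up 7.71%, 2.84% and 4.70%. The longest at a last end was on chromosome 6, where no phenylephrine peak lay over 3.31 Mb from 139855994 to 143170680, and no basal peak over 2.39 Mb from 140912979 to 143301382.

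Peaks near the ends had scores close to those of interior peaks, read by the authors' score within each list. Median basal scores were 77.0 in the first ends (75.4 to 79.1), 76.1 in the last ends (74.9 to 77.5) and 76.5 in the interior (76.0 to 77.0). Median phenylephrine scores were 62.6 (62.0 to 63.4), 62.3 (61.8 to 62.8) and 62.3 (62.1 to 62.5). A score of at least 100 was carried by 32.3% of all autosomal basal peaks, by 33.3% in the first ends (31.7 to 34.9%), 30.8% in the last ends (29.4 to 32.1%) and 32.4% in the interior (31.9 to 32.9%). In the phenylephrine list the share was 7.24% over all autosomal peaks, 7.05% in the first ends (6.18 to 8.03%), 6.86% in the last ends (6.10 to 7.71%) and 7.30% in the interior (7.03 to 7.58%). The top 1% of basal peaks took up different shares, with 1.63% of first-end peaks (1.24 to 2.13%), 0.622% of last-end peaks (0.428 to 0.903%) and 0.991% of interior peaks (0.893 to 1.10%). For the phenylephrine list these shares were 1.19% (0.858 to 1.65%), 0.658% (0.446 to 0.969%) and 1.02% (0.922 to 1.13%).

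Summed over the chromosomes, high-scoring basal peaks took up a larger share in the outermost Mb of both ends than in the interior. At the first ends 40.5% of the basal peaks of the outermost Mb scored at least 100 (33.8 to 47.6%), and at the last ends 40.3% (35.4 to 45.3%), against 32.4% in the interior. The share was 44.6% of 294 basal peaks in the next Mb of the first ends and 29.7% of 428 in that of the last ends. Over the outermost 5 Mb it was 36.7% (34.2 to 39.2%) at the first ends and 31.9% (30.0 to 33.9%) at the last ends. From 10 to 30 Mb inward, single Mb ran from 23.2% to 38.7% at the first ends and from 27.8% to 37.9% at the last ends. In the outermost Mb the phenylephrine shares were 10.5% at the first ends (6.82 to 15.8%) and 8.33% at the last ends (5.79 to 11.9%). These intervals include the 7.30% of the interior. From 5 to 10 Mb inward the basal shares were 30.4% (28.2 to 32.6%) and 29.5% (27.7 to 31.5%).

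The highest-scoring member in both lists sat at the first bases of chromosome 15, at 2 to 1071 in the basal list (score 3158) and 4 to 1096 in the phenylephrine list (score 1335). It was also the strongest peak of the outermost Mb in both lists. On chromosome 12 a basal peak at 4414338 to 4415492 (score 3100) overlapped a phenylephrine peak at 4414366 to 4415531 (score 601). Another strong pair stood 13.6 kb from the start of that chromosome, at 13370 to 13765 in the basal list (score 2033) and 13381 to 13763 in the phenylephrine list (score 867). The peak that sets the end of chromosome 7 under the rule used here was also among the strongest basal members, at 142847559 to 142848162 (score 1983), and it overlapped a phenylephrine peak at 142847444 to 142848121 (score 832). The basal list added a peak on chromosome 14 at 103107678 to 103108948 (score 2253), 9.04 Mb from the end, whose phenylephrine partner scored 454. The phenylephrine list added one on chromosome 10 at 106131404 to 106132628 (score 580), 4.57 Mb from the end, whose basal partner scored 582. All of these strong members were shared, and scores can be ranked only within a list. Whether repeated sequence, to which reads are hard to assign, underlies these peaks was not tested.

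Strong members called in 1 list only were found as well. Of the 3 strongest basal ones, 2 lay close to the strong chromosome 12 locus, at 4389686 to 4390475 (score 1170) and 4404533 to 4405202 (score 873). The nearest phenylephrine peaks were 21.1 and 9.16 kb away. The other was on chromosome 9 at 789927 to 791297 (score 944), only 0.574 kb from a phenylephrine peak. The strongest phenylephrine members without a basal partner ranked lower within their list than these basal ones did within theirs. One scored 191 and lay on chromosome 4 at 6737615 to 6737917, with a basal peak 1.92 kb away. The next scored 185, on chromosome 18 at 79835111 to 79836290, and its nearest basal peak was 31.8 kb away. The third scored 172, on chromosome 17 at 7279346 to 7279665, with the nearest basal peak 36.9 kb away. These ranked 193, 207 and 277 among the autosomal phenylephrine peaks, whereas the basal ones ranked 71, 102 and 94 in the order given.

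Median peak widths at the ends were 0.990 to 1.01 times those in the interior. Basal peaks had a median width of 1100.5 bp in the first ends (1079 to 1122), 1124 bp in the last ends (1109 to 1142) and 1112 bp in the interior (1107 to 1118). Phenylephrine peaks had 581 bp (577 to 587), 588 bp (582 to 594) and 585 bp (583 to 586). The excess width of basal peaks was therefore present in all 3 zones. Where a basal and a phenylephrine peak overlapped, the basal one was the wider in 95.9% of 652 pairs in the first ends, 96.1% of 828 in the last ends and 95.4% of 7195 in the interior. The median ratio of their widths was 1.96, 2.12 and 1.99. Basal peaks as broad as 2 kb or more were 12.6% of the last ends (11.6 to 13.6%), 11.4% of the first ends (10.4 to 12.6%) and 11.4% of the interior (11.02 to 11.7%). Among the last ends that of chromosome 10 had the broadest basal peaks, with a median of 1292 bp, against 1198 bp in the interior of the same chromosome. Among the first ends it was that of chromosome 7, with 1385 bp against 1120 bp.

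About 1 in 5 members was called in both libraries, close to the share over all autosomes. Counting an overlap of 1 bp or more, 19.7% of all autosomal basal peaks met a phenylephrine peak, and in the first ends 20.1% did (18.7 to 21.5%), in the last ends 18.3% (17.2 to 19.5%) and in the interior 19.8% (19.4 to 20.3%). Of all autosomal phenylephrine peaks 20.8% overlapped a basal peak, with 22.2% in the first ends (20.7 to 23.7%), 21.7% in the last ends (20.4 to 23.1%) and 20.6% in the interior (20.2 to 21.0%). The share at the last ends was above that of the interior in 7 of 20 chromosomes for basal and 10 of 20 for phenylephrine peaks. At the first ends it was above in 6 of 20 and 8 of 20, although the summed shares there exceeded those of the interior. Shared members scored higher than unshared ones. In the basal list their median scores were 119 (114 to 127) and 71.9 (71.0 to 72.9), and in the phenylephrine list 70.7 (68.9 to 72.0) and 60.9 (60.5 to 61.5). They were also wider. Shared basal members had a median of 1483 bp and unshared ones 1057 bp, and for phenylephrine members the medians were 698 bp and 566 bp.

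Within the ends, sharing went up with the score as it did in the interior. With each list cut into 4 equal parts by score, in the lowest basal part 7.90% of first-end peaks (6.24 to 9.94%), 7.33% of last-end peaks (5.94 to 9.02%) and 7.97% of interior peaks (7.42 to 8.56%) were shared. In the highest-scoring part the shares were 40.6% (37.3 to 44.0%), 39.0% (36.0 to 42.0%) and 43.4% (42.4 to 44.4%), and the interval of the last ends lies under that of the interior. The highest phenylephrine part had 38.7% (35.4 to 42.1%), 33.9% (30.9 to 37.0%) and 35.6% (34.6 to 36.7%), with overlapping intervals. The other phenylephrine parts lay between 12.7% and 20.8% at the ends and between 14.4% and 18.0% in the interior.

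**Figure D5:**
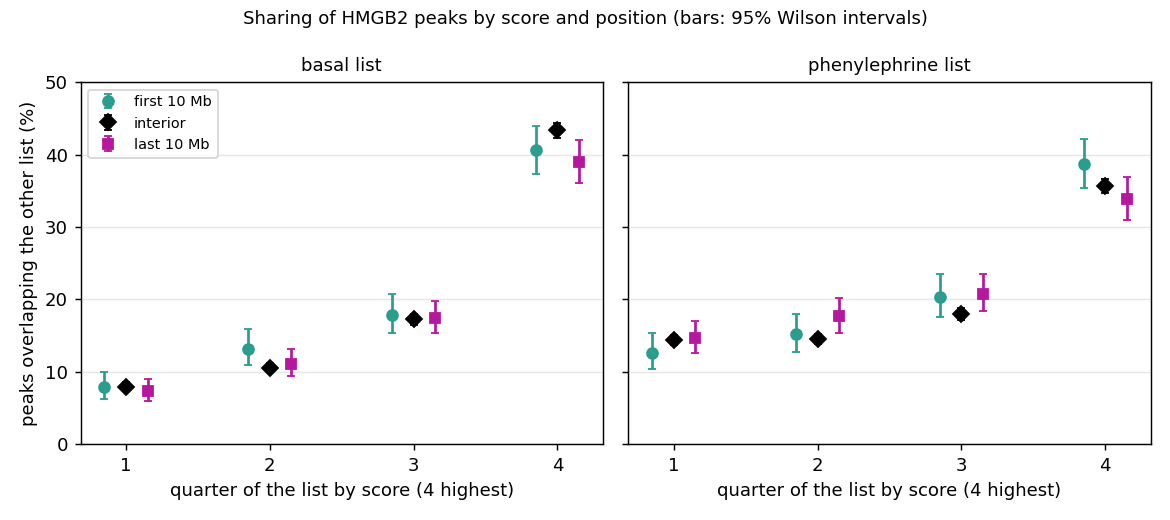
Share of peaks that overlap the other list by 1 bp or more (vertical axis, percent) in each of 4 equal parts of a list, ranked by score (horizontal axis), for the first 10 Mb, the interior and the last 10 Mb, with Wilson 95% intervals. In both lists the highest-scoring part stands well above the others in every zone, at 39.0% of basal peaks in the last ends and 43.4% in the interior.

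Single ends differed widely in sharing. At the start of chromosome 7, 28.2% of basal peaks and 49.3% of phenylephrine peaks were shared, the highest values of any first end in each list. The starts of chromosome 20 (35.4%) and chromosome 9 (29.6%) came next for the phenylephrine list, against 21.6% and 14.1% in the interiors of the same chromosomes. Among last ends chromosome 5 had the highest phenylephrine share, 33.2%, and chromosome 15 the lowest, 9.09%. In the basal list the last ends ran from 8.62% on chromosome 18 to 22.8% on chromosome 19. Sharing was also higher in the outermost 5 Mb than in the next 5 Mb, with 21.6% (19.6 to 23.8%) and 18.8% (17.0 to 20.7%) of basal peaks at the first ends and 19.6% (18.0 to 21.3%) and 17.1% (15.6 to 18.7%) at the last ends. The phenylephrine shares were 23.3% (21.2 to 25.6%) and 21.1% (19.2 to 23.2%) at the first ends, and 23.7% (21.8 to 25.7%) and 19.8% (18.1 to 21.6%) at the last ends. Of these 4 pairs only that of the phenylephrine list at the last ends had intervals that lay apart.

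Members also stood near others of their own list about as often as interior peaks did. Another basal peak stood within 10 kb of 49.0% of first-end basal members (47.3 to 50.8%) and 47.7% of last-end ones (46.2 to 49.2%), against 45.8% in the interior (45.3 to 46.3%). In the phenylephrine list the shares were 33.7% (32.0 to 35.5%), 36.9% (35.4 to 38.5%) and 35.5% (35.0 to 36.0%). First ends thus had close neighbours slightly more often than the interior in the basal list, although their mean density was lower.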

How the data were processed

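HMGB2 ChIP-seq was analysed from 2 libraries, 1 basal and 1 phenylephrine. The tools named per the submitters' processing notes are Bowtie 0.12.7, which aligns reads, and MACS 1.4.1, which calls peaks, and the named build is rn4. Per the labels' protocols, cells were plated for 24 h, fixed in 1% formaldehyde for 10 min and sheared to 500 bp. The authors deposited 1 peak list per library, with chromosome, start, end and a score. Neither the scale of the score nor the control, threshold or read depth is given in the sources used here, so the deposited scores were read only within a list and the depth behind each peak is unknown.

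Starts are printed with 1 added. The lowest start in either list is 1, so printed starts may be 1 bp too high. Overlap needed at least 1 bp, and the counts were identical to those of bedtools 2.31.1. The tools were scipy 1.17.1, numpy 2.4.6 and pandas 2.3.3 under Python 3.11.15, with matplotlib 3.10.9 for figures. Intervals are 95%: exact Poisson for densities, Clopper-Pearson for ratios of densities, Wilson for shares and exact binomial for medians. They cover counting error only. No p-value was computed. On a simulated list of 42482 peaks made with density ratios of 0.5 (first) and 1.5 (last), 0.509 and 1.54 were recovered.

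The members and the comparisons were chosen with earlier results of these data known. Windows of 10 Mb in the interior, the cut of chromosomes into 10 equal parts and counts of ends with intervals apart were added later. By the naming rule the text gives, per list, the 5 strongest end peaks, the 3 strongest unshared ones, the strongest in the outermost 1 Mb, the 3 densest and 3 sparsest ends, and in each direction the 3 end bins of 1 Mb in which the lists differed most. The start of chromosome 7, the longest peak-free stretches and the ends singled out for sharing, width or balance were picked after their values were seen. Alternatives changed the window, the score, the overlap rule, the peak width, merging and the chromosomes used.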

Additional observations from a re-analysis of the deposited data

How the results depend on the processing

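No paired analysis was possible because there was only 1 library of basal and 1 of phenylephrine-treated cells, and none could be left out. In total 18 comparisons with the interior were recomputed in 134 alternatives, of which 109 stayed within the interval of the reported value. The last ends remained denser than the interior in both lists under every alternative run. With the outer 5% of each chromosome in place of 10 Mb, the ratios of density to the interior were 0.830 (first ends, basal), 0.861 (first, phenylephrine), 1.25 (last, basal) and 1.12 (last, phenylephrine). With peaks scoring at least 100 the last ends had 1.27 for basal and 1.11 for phenylephrine peaks, the latter with an interval of 0.971 to 1.26. For the first ends, windows of 5 Mb gave 0.877 and 0.847, and leaving out the outermost 1 Mb gave 1.01 and 0.949. Without chromosomes 10, 12 and 20 the basal first ends had 0.891. Leaving out each chromosome in turn gave 0.897 (without chromosome 20) to 1.01 (without chromosome 8) for basal first ends, at most 0.9501 (without chromosome 13) for phenylephrine first ends, and 1.29 (without chromosome 5) to 1.37 (without chromosome 18) for basal last ends. In an alternative chosen after seeing the data, the density of the first over the last ends of the metacentric chromosomes, 1.15 for basal and 1.04 for phenylephrine peaks, ran from 0.9412 and 0.920 without chromosome 20 to 1.52 and 1.29 without chromosome 19.

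Differences in shares were small and less stable. Sharing at the first ends minus that of the interior was 0.267 points for basal peaks and 2.01 with windows of 5 Mb. For phenylephrine peaks it was 1.56 points, 0.404 without chromosome 20, and turned to -0.180 with the outer 5%. At the last ends it was -1.49 points for basal peaks and -0.0569 with 5 Mb. For phenylephrine peaks it was 1.13 points, and 3.12 with 5 Mb, -5.78 with a score of at least 100 and -0.749 with 50% of both peaks. The share scoring at least 100 at the first ends exceeded that of the interior by 4.52 points for basal and 0.936 for phenylephrine peaks with 5 Mb, against 0.901 and -0.257. The phenylephrine share of calls at the first ends, -1.48 points from the interior, turned to 0.925 with the outer 5% and was -0.149 without chromosomes 10, 12 and 20. At the last ends, -3.19 points became -1.98 with a score of at least 100. Median phenylephrine widths over the interior were 0.961 (first ends) and 1.03 (last ends) at that score, and 1.02 for last ends with 5 Mb. Except for what a setting removes, the cause was not tested.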

Other observations

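Peaks of 1 library alone filled few bins of 1 Mb at the ends. In the first ends 12 of 196 bins with a peak held phenylephrine peaks only, and 2 held basal peaks only. In the last ends the counts were 7 and 2 of 209, and in the interior 88 and 8 of 2140. Some of these last-end bins are the final bins of chromosomes, which are shorter than 1 Mb. As a share of the bins with a peak, phenylephrine-only bins made up 6.12%, 3.35% and 4.11%, in this order. Such bins at the ends held at most 9 phenylephrine peaks. Bins with at least 40 basal peaks made up 11.8% of the last-end bins, 6.50% of the first-end bins and 6.72% of the interior bins. With at least 40 phenylephrine peaks the shares were 0.474%, 0.5% and 0.927%, so this list had no such excess at the last ends.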
